A study of Mus musculus with 12 samples.

Results

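Ceruloplasmin, haem oxygenase 1 and the main genes of cellular iron handling were followed through a knockdown of UBF, the product of Ubtf and a partner of RNA polymerase I in the nucleolus. The set held 10 genes of the 19938 named on the array: the ferroxidases Cp and Heph, the haem-degrading enzyme Hmox1, the iron importers Tfrc and Slc11a2, the exporter Slc40a1, the ferritin subunits Fth1 and Ftl1, and the iron regulatory proteins Aco1 and Ireb2. The set was put together because Cp was higher with both UBF siRNAs and Hmox1 with 1 of them, so those values are given below as a description without a test. All probe sets of the 10 genes were read. These were 14, of which 10 named a single gene and 4, all for Ftl1, named microRNA genes as well.

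The cells were NIH3T3, immortalised fibroblasts of the mouse grown in DMEM with fetal bovine serum, and their RNA was read on Affymetrix arrays. The 4 groups were cells given sirUBF oligo #1 (oligo 1), cells given sirUBF oligo #2 (oligo 2), cells given sirEGFP, an siRNA named for a protein foreign to mouse cells, and Mock cells. All 4 groups received the lipid reagent Dharmafect 2, the siRNAs were used at 40 nM, Mock cells received no siRNA, and RNA was taken after 48 h. Each group had 3 arrays, which the design text calls biological replicates, all of a single cell line, so the p-values measure the spread between those arrays.

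Cells take up iron bound to transferrin through the transferrin receptor, carry it across the endosomal membrane through the transporter Slc11a2, store it in ferritin and export it through ferroportin, the product of Slc40a1. Iron leaving a cell is oxidised by the copper enzymes ceruloplasmin and hephaestin. Haem oxygenase 1 releases iron from haem, and its gene is a textbook target of stress-activated transcription factors. When iron is scarce, the iron regulatory proteins bind hairpins in messenger RNAs, which stabilises the Tfrc transcript and blocks translation of ferritin, so ferritin is largely controlled at a step that transcript levels do not show.

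Cp and Tfrc are the genes of the set whose difference between the 2 siRNAs passed a test, and stretches from their start regions are shown to identify them. Both are taken from RefSeq on build GRCm38.p6 and run on the plus strand. The Cp stretch covers 30 bases of chr3:19957209-19957238, upstream of an annotated start at 19957249, and its capitals mark the overlapping matches to TATAA and to its reverse complement TTATA.
Cp: aaatgaagccctatTTATAAaattgcttgc
The Tfrc stretch covers the 250 bases of chr16:32608646-32608895 that precede the gene's first annotated base. It holds neither TATAA nor ACGTG on either strand, and so carries no capitals. ACGTG is a form of the core of hypoxia response elements, and other forms of that core were not searched for. Each gene has a second annotated start, and there the matches differ: the Cp window before 19957054 holds neither motif, and the Tfrc window before 32609122 holds both. The Tfrc windows overlap. The ACGTG match begins 228 bases before 32609122, so it starts in the last bases of the printed stretch and runs on past its end.
Tfrc: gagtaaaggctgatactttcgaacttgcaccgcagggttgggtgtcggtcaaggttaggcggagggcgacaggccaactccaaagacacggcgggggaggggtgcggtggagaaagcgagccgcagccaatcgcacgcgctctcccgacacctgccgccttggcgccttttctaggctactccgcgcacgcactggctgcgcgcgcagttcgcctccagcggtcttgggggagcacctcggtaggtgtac
Of 32851 promoter windows of the same 250 bases, 22.8% held TATAA or its reverse complement and 16.6% held ACGTG or its reverse complement CACGT. The share of G and C was 39.2% in the 250 bases before that Cp start and 64.8% in the Tfrc window, against a median of 52.4% over all windows. These matches describe letters only, and no binding was measured.

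Levels are log2 expression values as deposited, so a difference of 1 is a 2-fold difference. For Ubtf, the targeted gene, every knockdown array lay below every control array. Against sirEGFP its change was -0.55 ± 0.17 with oligo 1 (SE, limma adjusted p = 0.107) and -0.61 ± 0.17 with oligo 2 (adjusted p = 0.0771), and both fell against Mock (adjusted p = 0.0252 and 0.0146), although neither Mock call held without Mock array 1 or 2, that of oligo 1 also not without Mock array 3 or oligo 1 array 2 or 3, and that of oligo 2 not without oligo 2 array 3. With the replicate number as a block both passed against sirEGFP (adjusted p = 0.0172 for oligo 1 and 0.0115 for oligo 2). Array medians lay between 5.38 and 5.54. All 12 fibroblast markers lay above the median of all genes (5.65). Of the other lists, 3 of 9 measured macrophage markers, 1 of 7 measured hepatocyte markers and 2 of 5 measured erythroid markers did. The mean level of the macrophage markers was 4.81 to 4.93 on oligo 1 arrays, 4.57 to 4.84 on oligo 2 arrays, 4.64 to 4.79 on sirEGFP arrays and 4.58 to 4.84 on Mock arrays. Arrays of a group spread along 1 main axis that held 41.5% of the variance within groups, with oligo 1 array 2 at one end and oligo 1 array 1 and sirEGFP array 1 at the other. A bulk sample cannot tell a change in part of the cells from a smaller change in all of them. Where arrays are said below not to overlap, the share of all genes was counted only for all 6 knockdown against all 6 control arrays.

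Cp, which encodes the copper-carrying ferroxidase ceruloplasmin (chr3:19956933-20009750), was higher with both siRNAs. Its level was 7.13, 7.90 and 7.43 on the oligo 1 arrays and 8.32, 8.27 and 8.73 on the oligo 2 arrays, against 6.18, 6.19 and 6.13 on the sirEGFP arrays and 6.23, 6.58 and 6.16 on the Mock arrays. Every knockdown array lay above every control array, as the 6 against 6 arrays did in one direction or the other for 2.12% of all genes, and every oligo 2 array lay above every oligo 1 array. Against sirEGFP the difference was 1.32 ± 0.18 with oligo 1 (SE), or 2.50-fold, and 2.28 ± 0.18 with oligo 2, or 4.84-fold. Against Mock it was 2.24-fold with oligo 1 and 4.33-fold with oligo 2. These 4 differences chose the gene and carry no test. The difference between the siRNAs was not part of the rule. It rests on the knockdown arrays that chose the gene, so its test is not independent of that choice. Cp was 0.95 ± 0.18 lower with oligo 1 than with oligo 2 on the log2 scale (limma adjusted p = 0.00816), and without oligo 2 array 3 this difference was -0.80 and did not pass (adjusted p = 0.0530).

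Heph, the gene for the membrane ferroxidase hephaestin and a relative of Cp (chrX:96455436-96574485), did not follow it. Its level was 4.29, 4.39 and 4.29 with oligo 1 and 4.32, 4.39 and 4.27 with oligo 2, against 4.25, 4.37 and 4.40 with sirEGFP and 4.30, 4.17 and 4.05 in Mock. The 4 groups overlapped. The difference from sirEGFP was -0.02 with oligo 1 (95% interval -0.25 to 0.22, limma adjusted p = 0.979) and -0.01 with oligo 2 (-0.24 to 0.22, adjusted p = 0.983). Its levels lay below the median of all genes, and whether the probes were above background cannot be judged from the deposited values.

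**Figure D1:**
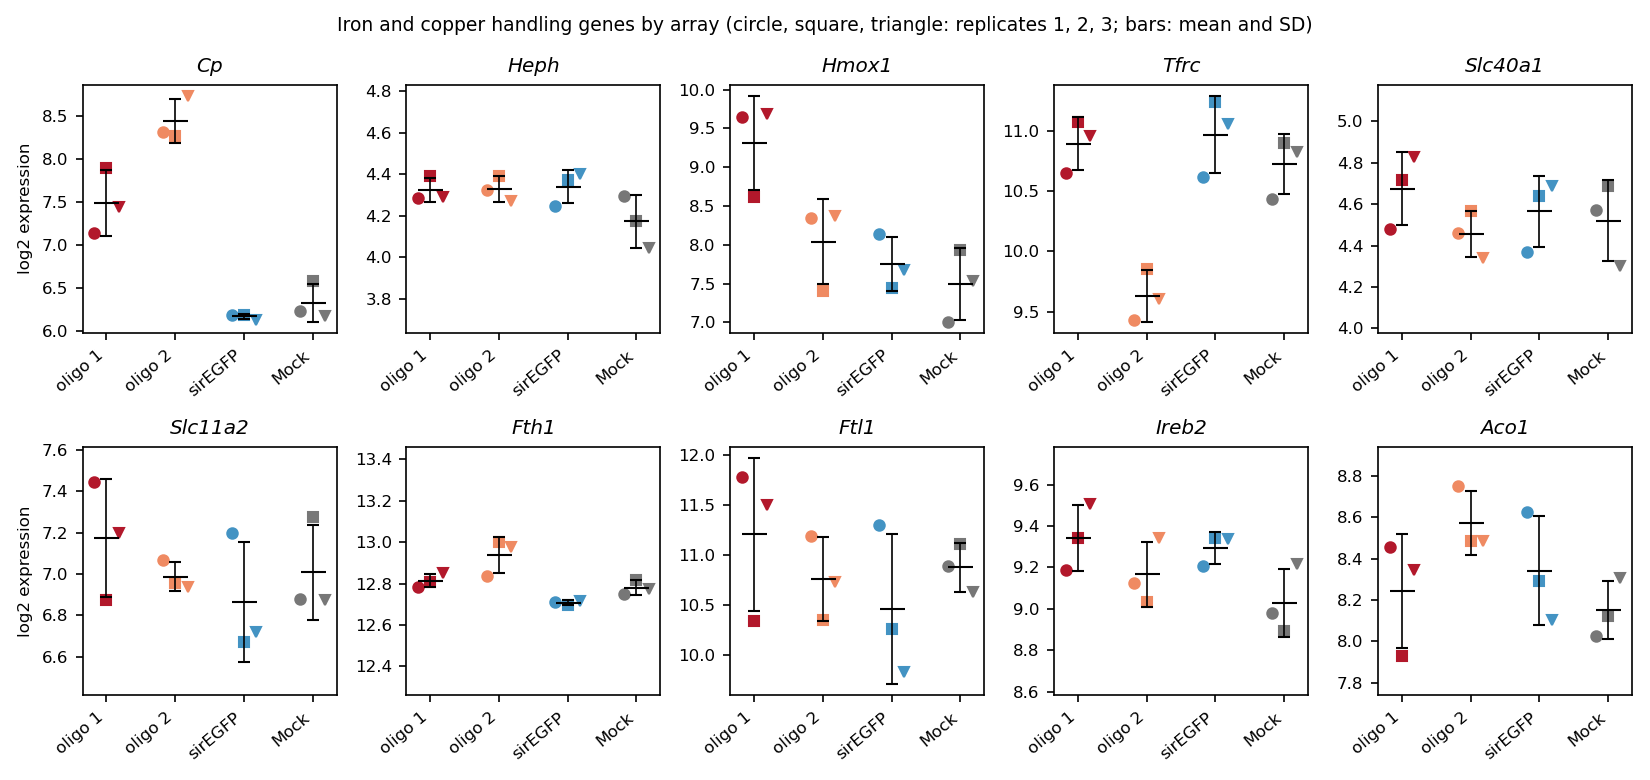
Log2 expression of the 10 genes on each array, in 1 panel per gene with its own axis range. Points are arrays (circle, square and triangle for replicates 1, 2 and 3), and bars give the group mean and SD of 3 arrays. Cp is higher on all 6 knockdown arrays, Hmox1 is highest on the 3 oligo 1 arrays and Tfrc is lowest on the 3 oligo 2 arrays.

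Hmox1, the inducible enzyme that opens the haem ring and frees its iron (chr8:75093618-75100593), was higher with oligo 1. The oligo 1 arrays stood at 9.65, 8.61 and 9.68 and the oligo 2 arrays at 8.34, 7.41 and 8.38, against 8.14, 7.45 and 7.68 with sirEGFP and 7.01, 7.94 and 7.53 in Mock. All 3 oligo 1 arrays lay above all 9 others, and the oligo 2 arrays overlapped with both controls. The difference from sirEGFP was 1.56 ± 0.32 with oligo 1 (SE), or 2.94-fold, and 0.29 ± 0.32 with oligo 2, or 1.22-fold. From Mock the oligo 1 arrays differed by 3.53-fold and from the oligo 2 arrays by 2.41-fold. All of these values chose the gene, so none carries a test. The SD was 0.61 within oligo 1, where array 2 was about 1 log2 unit below the other arrays, and 0.55 within oligo 2, where array 2 was also the lowest. With the 3 outermost arrays of the axis of spread removed, oligo 1 array 3 alone stood 2.12 above the remaining sirEGFP arrays.

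Tfrc, the transferrin receptor through which most cells take up iron (chr16:32608896-32632794), fell with oligo 2. Its level was 10.65, 11.07 and 10.95 on the oligo 1 arrays and 9.43, 9.85 and 9.61 on the oligo 2 arrays, against 10.61, 11.24 and 11.06 with sirEGFP and 10.44, 10.90 and 10.82 in Mock. All 3 oligo 2 arrays lay below the other 9, and oligo 1, sirEGFP and Mock overlapped. Tfrc was 1.34 ± 0.18 lower with oligo 2 than with sirEGFP on the log2 scale (SE, n = 3 each, limma adjusted p = 0.000986), a level 60.4% lower or 2.53-fold lower. Measured from Mock, the oligo 2 change of Tfrc was -1.09 ± 0.18 (adjusted p = 0.00351). With oligo 1 the difference from sirEGFP was -0.08 (95% interval -0.46 to 0.31, adjusted p = 0.925), so a fall of the size seen with oligo 2 lay outside that interval.

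The difference between the siRNAs in Tfrc was itself tested. Tfrc was 1.26 ± 0.18 higher with oligo 1 than with oligo 2 (SE, limma adjusted p = 0.00122), or 2.40-fold. The fall with oligo 2 against sirEGFP passed in all 24 alternative settings (adjusted p from 9.60e-06 to 0.0124), and the difference between the siRNAs in all 22 that apply to it. The mean of both siRNAs against sirEGFP was -0.71 (adjusted p = 0.0328) and passed in 15 of 24 settings, but not without sirEGFP array 2 (adjusted p = 0.231) or 3, oligo 1 array 1 or 3, or oligo 2 array 1 or 3. That mean joins the level of oligo 2 with that of oligo 1, which did not differ from sirEGFP by the test.

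Slc11a2, the proton-coupled transporter that moves ferrous iron out of endosomes (chr15:100387898-100424209), was not called with either siRNA. It stood at 7.44, 6.88 and 7.20 with oligo 1 and 7.07, 6.96 and 6.94 with oligo 2, against 7.20, 6.67 and 6.72 with sirEGFP and 6.88, 7.27 and 6.87 in Mock. All 4 groups overlapped. The change was 0.31 ± 0.17 with oligo 1 (SE, limma adjusted p = 0.484) and 0.12 ± 0.17 with oligo 2 (adjusted p = 0.856). With array weights the oligo 1 change was 0.42 and passed (adjusted p = 0.0156), a fit that rests mostly on oligo 1 array 3 (weight 8.92, with 0.442 for array 1 and 0.416 for array 2).

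Slc40a1, which encodes ferroportin, the only known exporter of iron from mammalian cells (chr1:45908070-45926532), stood at 4.48, 4.71 and 4.83 on the oligo 1 arrays and 4.46, 4.56 and 4.34 on the oligo 2 arrays. Those of sirEGFP read 4.37, 4.64 and 4.69 and those of Mock 4.57, 4.69 and 4.30. The groups overlapped. The change against sirEGFP was 0.11 with oligo 1 (95% interval -0.19 to 0.41, limma adjusted p = 0.839) and -0.11 with oligo 2 (-0.41 to 0.19, adjusted p = 0.840). As for Heph, these levels lay below the median of all genes.

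Fth1, the ferritin heavy chain with the ferroxidase site of the ferritin shell (chr19:9980600-9985111), was narrowly spread. It stood at 12.79, 12.81 and 12.85 on the oligo 1 arrays and 12.84, 13.00 and 12.98 on the oligo 2 arrays, against 12.71, 12.70 and 12.72 with sirEGFP and 12.75, 12.82 and 12.77 in Mock. All knockdown arrays lay above all sirEGFP arrays, and those of oligo 2 also above all Mock arrays. The change against sirEGFP was 0.23 ± 0.10 with oligo 2 (SE, limma adjusted p = 0.344), or 1.17-fold, and 0.11 ± 0.10 with oligo 1 (adjusted p = 0.759). Neither passed, with a moderated SE of 0.10 that draws on the spread of all genes and an SD of 0.01 among the sirEGFP arrays.

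Ftl1, the ferritin light chain, which helps iron to mineralise inside the shell (chr7:45457944-45459886), varied widely between arrays of a group. On its single-gene probe set it read 11.79, 10.34 and 11.50 with oligo 1 and 11.19, 10.35 and 10.74 with oligo 2, against 11.30, 10.26 and 9.84 with sirEGFP and 10.89, 11.11 and 10.63 in Mock. All groups overlapped, and the SD reached 0.76 within oligo 1 and 0.75 within sirEGFP. The change against sirEGFP was 0.75 ± 0.37 with oligo 1 (SE, limma adjusted p = 0.406) and 0.30 ± 0.37 with oligo 2 (adjusted p = 0.835). Against Mock it was 0.33 with oligo 1 (adjusted p = 0.816) and -0.12 with oligo 2 (adjusted p = 0.947). The oligo 1 change against sirEGFP passed with array weights (1.16, adjusted p = 0.00193). Over the 24 alternatives it lay between 0.33 and 1.45, the highest of them with the 3 outermost arrays of the axis of spread removed, which leaves oligo 1 with array 3 alone.

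The other 4 Ftl1 probe sets also named Mir692-2 and Mir692-3, so their signal cannot be assigned to 1 gene. Across all 5 probe sets the oligo 1 change against sirEGFP was between 0.32 and 0.75 and the oligo 2 change between 0.10 and 0.30. All 5 changes were positive with each siRNA and none passed limma's test over all probe sets (adjusted p from 0.625 to 0.929). Probe sets of 1 gene share its RNA and are not replicates, and ferritin light chain has near-identical copies in the mouse genome, so the Ftl1 values are uncertain.

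**Figure D2:**
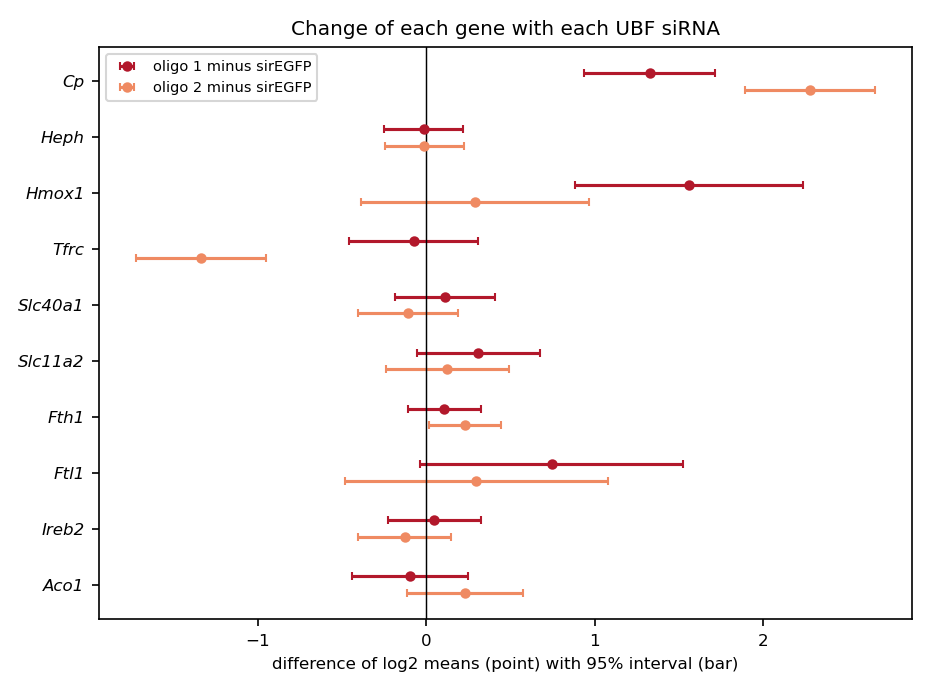
Difference of log2 means for the 10 genes, oligo 1 minus sirEGFP and oligo 2 minus sirEGFP, with limma's 95% interval as the bar (3 arrays per group). Both intervals of Cp, that of Hmox1 with oligo 1 and that of Tfrc with oligo 2 lie well clear of 0, and that of Fth1 with oligo 2 reaches down to 0.01. The intervals are not adjusted for the number of genes, and those of Cp and Hmox1 describe values that chose the genes.

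Aco1 and Ireb2 encode the iron regulatory proteins 1 and 2, which bind the hairpins of Tfrc and ferritin transcripts. Aco1, which doubles as the cytosolic aconitase when it holds an iron-sulphur cluster (chr4:40143265-40199009), stood at 8.45, 7.93 and 8.35 with oligo 1 and 8.75, 8.49 and 8.48 with oligo 2, against 8.63, 8.29 and 8.11 with sirEGFP and 8.03, 8.12 and 8.31 in Mock. The oligo 2 arrays lay above the Mock and the oligo 1 arrays and overlapped with sirEGFP. Its change against sirEGFP was -0.10 with oligo 1 (limma adjusted p = 0.884) and 0.23 with oligo 2 (adjusted p = 0.638). Against Mock, Aco1 with oligo 2 was at 0.42 (adjusted p = 0.199), and oligo 1 minus oligo 2 was -0.33 (adjusted p = 0.382).

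Ireb2, whose protein is degraded when iron is plentiful (chr9:54862658-54912534), read 9.18, 9.34 and 9.50 with oligo 1 and 9.12, 9.03 and 9.34 with oligo 2, against 9.21, 9.34 and 9.34 with sirEGFP and 8.98, 8.89 and 9.21 in Mock. The groups overlapped. The change against sirEGFP was 0.05 with oligo 1 (95% interval -0.23 to 0.32) and -0.13 with oligo 2 (-0.41 to 0.15), with limma adjusted p = 0.936 and 0.776. Activity of the regulatory proteins is set after transcription and was not measured.

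Of the 8 genes other than Cp and Hmox1, limma called 0 with oligo 1 against sirEGFP, where 2.47% of all genes were called. An unadjusted p under 0.05 was found there for 0 of the 8 and 2663 of all 19938 genes. With oligo 2 it called 1, Tfrc, which was lower, where 2.26% of all genes were called and 0.742% were called lower. The unadjusted p was under 0.05 with oligo 2 for 2 of the 8 and 2566 of all genes. The median change of the 8 genes was 0.08 with oligo 1, against 0.02 over all genes, and 0.06 with oligo 2, against -0.01 over all genes. Against Mock limma called 0 of the 8 with oligo 1, where 2.75% of all genes were called, and 1, again Tfrc, with oligo 2, where 4.25% were. The comparisons with sirEGFP share its 3 arrays, and those with Mock share the Mock arrays, so the 2 siRNAs' values are not independent.

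Between the siRNAs, 2 of the 9 genes other than Hmox1 were called, where 3.67% of all genes were. These were Tfrc, higher with oligo 1, and Cp, lower with oligo 1 and chosen on values of the same knockdown arrays. Fth1 differed by -0.12 between oligo 1 and oligo 2 (95% interval -0.34 to 0.09) and Ireb2 by 0.18 (-0.10 to 0.45). Transfection of the unrelated siRNA moved none of the 10 genes past the threshold. For sirEGFP against Mock limma called 0 of 10 and 0.0% of all genes, with 0 of the 10 and 1247 of all genes at an unadjusted p under 0.05. The lowest and highest of those differences were -0.41 for Ftl1 and 0.27 for Ireb2, while Cp stood at -0.16 (adjusted p = 0.934) and Tfrc at 0.25 (adjusted p = 0.864).

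Several of the genes followed the main axis of spread within groups. In part it goes with the replicate number: array 1 had the lowest score within oligo 1 (-26.8), oligo 2 (-14.7) and sirEGFP (-23.5), and array 2 a positive one (28.5, 9.53 and 7.23), whereas in Mock array 2 had the lowest score (-6.85). Over the 12 arrays, after each group mean was taken off, the deviation of Ftl1 correlated with the axis score at Pearson's r of -0.967, that of Slc11a2 at -0.894, that of Aco1 at -0.859, that of Hmox1 at -0.705 and that of Tfrc at 0.727. The other 5 genes lay between 0.329 and 0.499. These correlations describe arrays that also built the axis, and its sign is arbitrary. Oligo 1 array 2, at the end where Ftl1, Slc11a2, Aco1 and Hmox1 were low, had the lowest Hmox1, Ftl1, Slc11a2 and Aco1 level of its group. The part of this axis in the changes of these genes was not tested beyond leaving out the arrays at its ends. Without them Tfrc still passed with oligo 2, which kept its 3 arrays.

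**Figure D3:**
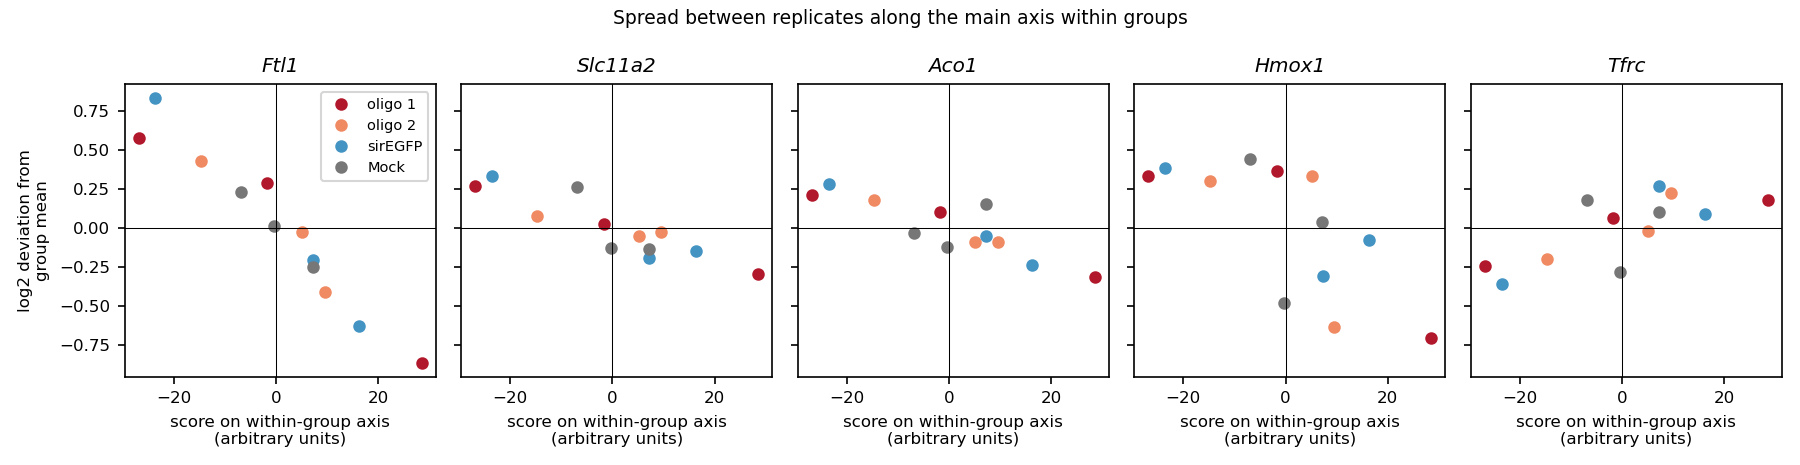
Deviation of Ftl1, Slc11a2, Aco1, Hmox1 and Tfrc from their group mean (log2, vertical) against the score of each of the 12 arrays on the main axis of spread within groups (horizontal, arbitrary units). Ftl1 falls along the axis with r = -0.967 and Tfrc rises with r = 0.727, and 3 arrays, of oligo 1 and sirEGFP, lie farthest out.

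The wider pathways were read from 7 lists of 114 genes outside the set, of which 104 were measured. In the mean of both siRNAs against sirEGFP, 5 of these rose and 0 fell, where 1.93% of all genes were called and 1.21% were called higher. An unadjusted p under 0.05 was found there for 20 of the 104 and 2640 of all 19938 genes. With the replicate number as a block the count of called genes was 9. It was 2 without sirEGFP array 2 or 3. Without oligo 2 array 1 or 3 it was 3, and without oligo 1 array 2 it was 8. The share of all genes called in these alternatives is not given here. With oligo 1 alone 5 rose and 2 fell, where 2.47% of all genes were called. With oligo 2 alone 3 rose and 0 fell, where 2.26% were. The median change of the 104 genes was 0.06 for the mean, against 0.01 over all genes. Against Mock, 3 rose and 1 fell in the mean, where 3.3% of all genes were called, and the median was 0.03, as over all genes. Nfe2l2 and Steap2 rose against both controls. Ncoa4, the receptor that delivers ferritin to lysosomes, rose by 0.45 (limma adjusted p = 0.0451) and Commd1, a gene tied to copper export, fell by 0.45 (adjusted p = 0.0354), each against Mock. Both were named after their values were seen, and both calls were lost without Mock array 1 or 2, oligo 1 array 3 or oligo 2 array 1 or 3, that of Ncoa4 also without sirEGFP array 2 or oligo 2 array 2 and that of Commd1 without Mock array 3. With oligo 1 alone against Mock 2 rose and 0 fell, where 2.75% of all genes were called. With oligo 2 alone against Mock 5 rose and 1 fell, where 4.25% were called. The gene that fell was Blvra, at -0.49 (limma adjusted p = 0.0273). The Blvra call was lost without Mock array 1 or 2 or oligo 2 array 2 or 3 (adjusted p from 0.103 to 0.117). It was also lost over all probe sets (adjusted p = 0.0563).

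Among regulators of Hmox1, 1 of 9 measured genes rose in the mean against sirEGFP and none fell, where 1.93% of all genes were called. Nfe2l2, which encodes NRF2, the activator of antioxidant genes including Hmox1, stood at 10.79, 10.57 and 10.74 with oligo 1 and 11.10, 11.17 and 11.17 with oligo 2, against 10.29, 10.18 and 10.20 with sirEGFP and 10.19, 10.02 and 10.20 in Mock. All knockdown arrays lay above all controls, and oligo 2 above oligo 1, whereas Hmox1 was highest with oligo 1. Relative to sirEGFP, Nfe2l2 stood 0.47 higher with oligo 1 (limma adjusted p = 0.0311) and 0.92 higher with oligo 2 (adjusted p = 0.000272), and it also rose against Mock with both (adjusted p = 0.0105 and 0.000138). The oligo 1 call against sirEGFP was lost when each array was centred on its median (adjusted p = 0.0697), and without sirEGFP array 2 or 3 and without oligo 1 array 1 or 3, its call against Mock without Mock array 2 or oligo 1 array 3, and the oligo 2 call against sirEGFP passed in all 24 alternatives. In the mean, Keap1, the adaptor that targets NRF2 for degradation, was at 0.37 (adjusted p = 0.153), Maff at -0.33 (0.106) and Nfe2l1 at 0.30 (0.448).

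In the list of iron uptake, export and storage, 2 of 22 genes rose in the mean against sirEGFP, where 1.21% of all genes were called higher. Steap2, a metalloreductase that reduces ferric iron and cupric copper, read 9.87, 9.70 and 9.74 with oligo 1 and 9.71, 9.79 and 9.68 with oligo 2, against 9.13, 9.23 and 9.19 with sirEGFP and 9.21, 9.18 and 9.36 in Mock. All knockdown arrays lay above all controls, and the mean change was 0.56 ± 0.09 against sirEGFP (limma adjusted p = 0.00518) and 0.50 against Mock (adjusted p = 0.00887). Steap3, the endosomal ferric reductase that works between Tfrc and Slc11a2, rose by 0.67 against sirEGFP (adjusted p = 0.0368) but was at 0.06 against Mock (adjusted p = 0.930). Its sirEGFP arrays, at 6.10, 5.91 and 6.02, lay below its Mock arrays, at 6.42, 6.76 and 6.68. The Steap3 call was lost without any 1 of 7 of the 12 arrays, and that of Steap2 was kept without each against sirEGFP and lost without Mock array 1 or 2 against Mock. Exoc6, of the exocyst, was at -0.45 (adjusted p = 0.0648) and Snx3, which recycles the transferrin receptor, at 0.22 (adjusted p = 0.403).

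Genes of haem synthesis had a median of 0.26 against sirEGFP and -0.05 against Mock, with -0.17 for sirEGFP against Mock. Of 12 measured, 1 rose in the mean against sirEGFP, where 1.21% of all genes were called higher. It was Uros, at 0.66 (limma adjusted p = 0.0217). Uros, the synthase of uroporphyrinogen III, was at 0.25 against Mock (adjusted p = 0.428), where it did not pass, and its call against sirEGFP was lost without sirEGFP array 2 or 3. The haem synthesis genes Ppox (0.40, adjusted p = 0.356), Abcb6 (0.37, adjusted p = 0.348) and Urod (0.35, adjusted p = 0.413) did not pass. Of 20 measured genes of iron-sulphur cluster assembly 1 rose in the mean, against the same share of all genes. It was the co-chaperone gene Hscb, at 0.53 (adjusted p = 0.0315), with 0.75 for oligo 1 (adjusted p = 0.00754) and 0.30 for oligo 2 (adjusted p = 0.352). Against Mock, Hscb was at 0.13 (adjusted p = 0.727), and its call in the mean was lost without any 1 sirEGFP array or oligo 2 array 1 or 3. Nfu1 (0.32, adjusted p = 0.296), Ciao2a (-0.28, adjusted p = 0.420) and Mms19 (0.22, adjusted p = 0.437), of the same pathway, did not pass.

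Of 10 measured genes of haem and bilirubin breakdown and haem carriage, limma called 0 in the mean against sirEGFP, where 1.93% of all genes were called. An unadjusted p under 0.05 was found there for 3 of the 10 and 2640 of all 19938 genes. Blvrb, a reductase of biliverdin and flavins, read 9.0, 7.96 and 8.49 with oligo 1 and 8.20, 7.68 and 7.88 with oligo 2, against 7.90, 7.23 and 7.02 with sirEGFP and 7.85, 8.28 and 7.55 in Mock. It rose by 1.10 with oligo 1 against sirEGFP (adjusted p = 0.0416), where no array overlapped, but its oligo 1 and Mock arrays overlapped, and the call was lost without any 1 of 7 arrays. Lrp1, a receptor that takes up haem bound to haemopexin, was at 0.90 (adjusted p = 0.0984), the haem transporter gene Slc48a1 at 0.44 (adjusted p = 0.268) and Cd163 at -0.23 (adjusted p = 0.448).

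Copper handling, on which ceruloplasmin also depends, had 18 measured genes. In the mean limma called 0 of them against sirEGFP, where 1.93% of all genes were called. Against Mock it called 1, Commd1, where 3.3% were. Against sirEGFP 5 of the 18 and 2640 of all 19938 genes had an unadjusted p under 0.05. With oligo 1 against sirEGFP, 2 of the 18 fell, where 2.47% of all genes were called. Atp7a, the pump that loads copper into secreted enzymes such as ceruloplasmin, stood at 6.83, 7.07 and 7.03 with oligo 1 and 7.93, 7.86 and 8.14 with oligo 2, against 7.52, 7.92 and 7.73 with sirEGFP and 7.01, 7.43 and 7.82 in Mock. The oligo 1 arrays lay below those of oligo 2 and sirEGFP and overlapped with Mock. Atp7a fell by 0.75 with oligo 1 against sirEGFP (adjusted p = 0.0370) and Xiap, an apoptosis inhibitor also tied to copper, fell by 0.73 (adjusted p = 0.0431). The Atp7a call was lost without any 1 of sirEGFP arrays 2 and 3, oligo 1 arrays 1 and 3, oligo 2 arrays 1 and 3 and Mock array 2, and the Xiap call without any 1 of 9 of the 12 arrays. The metallothionein genes Mt2 (0.29, adjusted p = 0.319) and Mt1 (0.28, adjusted p = 0.332), the collagen cross-linker gene Loxl1 (0.46, adjusted p = 0.333) and the copper importer gene Slc31a1 (-0.25, adjusted p = 0.339) did not pass in the mean.

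The 13 genes of systemic and cellular iron control had a median of -0.02. In the mean against sirEGFP limma called 0 of them, where 1.93% of all genes were called. An unadjusted p under 0.05 was found there for 1 of the 13 and 2640 of all 19938 genes. Fbxl5, the iron-sensing ubiquitin ligase subunit that removes iron regulatory protein 2, was at -0.32 (adjusted p = 0.150). Epas1, the hypoxia factor HIF-2 alpha, was at -0.17 (adjusted p = 0.533), and the hepcidin genes Hamp and Hamp2, expressed mainly in liver, at -0.28 (adjusted p = 0.535) and -0.21 (adjusted p = 0.658).

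**Figure D4:**
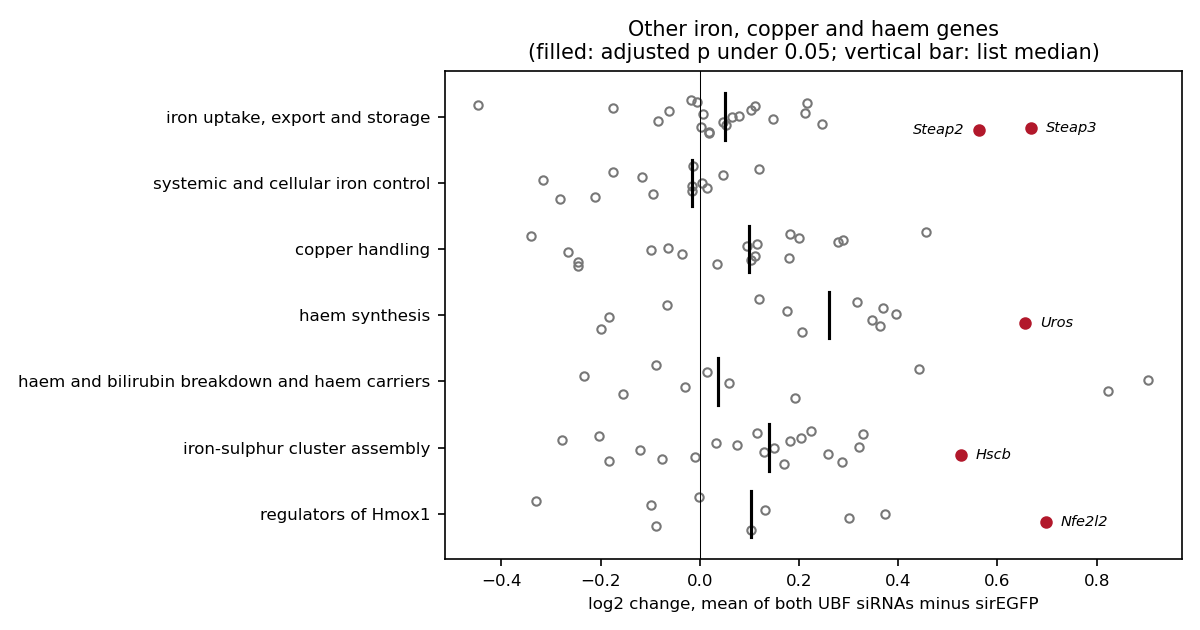
Log2 change of each measured gene of 7 iron, copper and haem lists, mean of both UBF siRNAs minus sirEGFP (horizontal), with 1 row per list. Filled points are the 5 genes with an adjusted p under 0.05, open points the other 99, and the vertical bar is the list median, which is highest for haem synthesis at 0.26. Against Mock, not plotted, the median of that list is -0.05, the lowest of the 7.

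The genes whose level followed Cp most closely over the 12 arrays were Lxn (Pearson's r = 0.955), Txnip (0.949), Sntb2 (0.943), Plcb4 (0.942) and Entpd5 (0.940). None of them is a gene of iron or copper handling on the lists used. Txnip, an inhibitor of thioredoxin, was at 1.60 with oligo 1 and 2.38 with oligo 2 against sirEGFP, beside 1.32 and 2.28 for Cp. Hmox1 was followed most closely by Gpnmb (r = 0.968), Tmc6 (0.939), Mr1 (0.934), Slc5a8 (0.932) and P2rx4 (0.931). Gpnmb, a membrane glycoprotein of lysosome-rich cells, was at 0.84 with oligo 1 and 0.05 with oligo 2. These genes were picked for their likeness on the same arrays, which share group differences and the axis of spread, so the correlations are a description without a test.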

How the data were processed

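The authors deposited log2 expression values of 35512 probe sets, a scale inferred from the values. Their summary and normalization steps were not given in the sources used here, and limma is named, with no version, per the submitters' processing notes. Genes were assigned by the platform annotation (21789 with 1 symbol, 1621 with several, 12102 with none), with symbols updated to RefSeq GRCm38.p6 names by Entrez identifier for 21698. Where a gene had several probe sets (999 genes), the brightest was kept, for 19938 genes in all.

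The model, fitted in limma 3.58.1 under R 4.3.3 with lmFit and eBayes, had 1 coefficient per group over the 12 arrays (8 residual degrees of freedom) and gave two-sided tests. Calls were made under 0.05 after Benjamini-Hochberg adjustment over all genes. On simulated data with the spread of these genes, 87% of genes changed by 1 and 31% of genes changed by 0.58 on the log2 scale were recovered for oligo 1 against sirEGFP. The simulated spread was drawn independently for each gene and array, without the shared axis of spread, so these shares may not hold for the real arrays.

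The groups share replicate numbers. Deviations of same-numbered arrays correlated at 0.18 to 0.55 between oligo 2 and sirEGFP and at 0.12 to 0.39 between oligo 2 and oligo 1, which was taken as pairing, and at -0.08 to 0.55 between oligo 1 and sirEGFP, which was not. The main fit had no block, so its p-values leave this pairing out. The block was run as an alternative, in which Ubtf passed against sirEGFP and more pathway genes were called. The number of arrays limits the precision, and signal over background cannot be judged from these values.

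The members and lists were chosen with earlier results of these data known. Named were all members, Ubtf, up to 4 genes per list, by smallest p for the mean of both siRNAs, every list gene called against sirEGFP, and the 5 genes most like Cp and most like Hmox1. Genes named outside this rule are marked. Alternatives were other normalizations, filters, controls, array weights, blocks and leaving out each array.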

Additional observations from a re-analysis of the deposited data

Results flagged for a closer look

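For 2 genes of the set the change with one siRNA differed from that with the other by limma's test of the difference itself, with a Benjamini-Hochberg adjusted p over all genes. Tfrc stood 1.26 higher with oligo 1 than with oligo 2 (adjusted p = 0.00122), and Cp at -0.95 (adjusted p = 0.00816). Cp was chosen on values of the same knockdown arrays, so its test is not independent of that choice. Of the pathway genes, 3 were lower with oligo 1 than with oligo 2: the copper pump gene Atp7a at -1.0 (adjusted p = 0.00516), Xiap at -0.78 (adjusted p = 0.0228) and Nfe2l2 at -0.45 (adjusted p = 0.0326). Another 3 were higher: Cpox, of haem synthesis, at 0.73 (adjusted p = 0.0195), the amine oxidase gene Lox at 0.50 (adjusted p = 0.0289) and Blvra, a biliverdin reductase gene, at 0.49 (adjusted p = 0.0282). Cpox, Lox and Blvra were named after their values were seen. In all 8 cases the arrays of the 2 siRNAs did not overlap, which adds no support, since the test on the same arrays picked these genes. The share of all genes without such overlap was not counted, and 3.67% of all genes were called in this comparison. With 1 array left out at a time, the differences of Tfrc and Atp7a passed throughout and that of Cp failed without oligo 2 array 3 (adjusted p = 0.0530). Those of Xiap, Nfe2l2, Cpox, Lox and Blvra were each lost on leaving out any 1 of 3 to 5 arrays. With the replicate number as a block in the 2 compared groups only, those of Nfe2l2 (adjusted p = 0.0726) and Lox (adjusted p = 0.0583) did not pass. With the 3 outermost arrays of the axis of spread removed, oligo 1 keeps array 3 alone, and the difference was -0.95 for Atp7a, -0.55 for Xiap, -0.41 for Nfe2l2, 0.72 for Cpox, 0.37 for Lox and 0.41 for Blvra.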

How the results depend on the processing

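No called result changed direction under the alternatives run. Among recomputed values of the results that answer a comparison, 173 kept their size and 15 moved. Among recomputed tests of single genes, 1948 gave the same outcome, called or not. Another 145 lost a call and 58 gained one. With array weights, 2 of the 8 genes other than Cp and Hmox1 were called with oligo 1 against sirEGFP (Ftl1 and Slc11a2), against 0, 4 genes were called between the siRNAs (Cp, Ftl1, Slc40a1 and Tfrc), against 2, and 16 pathway genes in the mean of both siRNAs, against 5. With the 3 outermost arrays of the axis of spread removed, an alternative chosen after seeing the data that leaves oligo 1 with array 3 alone, assumed to vary like the other groups, 1 gene (Ftl1) was called with oligo 1 and the Hmox1 difference from sirEGFP was 2.12. Leaving out 1 array at a time gave 1 to 2 calls between the siRNAs, 1 without oligo 2 array 3, and 2 to 8 pathway genes. The pathway count was 9 with the replicate block, 10 with the replicate block in the compared groups only, which was added after seeing the data, 3 with only the groups compared and 2 over all probe sets. The share of all genes called under each of these settings is not given here. These counts therefore do not show whether genes of iron and copper handling moved more than others. The block changed no call among the tested genes of the set against sirEGFP or between the siRNAs. The cause of these moves was not tested. Limits are the 3 arrays per group, an unknown normalization and levels of Heph and Slc40a1 below the median of all genes. Protein, iron and copper were not measured.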
